A study of Mus musculus with 45 samples.

Results

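The erythroid GATA factors and their cofactor were followed here as 4 genes of the 24333 in a deposited table of accessibility gene scores. The genes are Gata1, Gata2, Gata3 and Zfpm1, the gene that encodes Friend of GATA 1 (Fog1). They were chosen by name, with earlier results of these data known, and each was read in every maturation class, cluster and library of Ter119+ erythroblasts. A gene score is in general a summary of the open chromatin in and around a gene in 1 nucleus, so it stands for accessibility and not RNA. How these scores were computed is not given in the sources used here.

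GATA1 is the zinc finger transcription factor that drives red cell, megakaryocyte, mast cell and eosinophil genes, and GATA2 is its relative in stem and progenitor cells. During erythroid maturation GATA1 takes over sites held by GATA2 and the Gata2 gene is shut, a step known as the GATA switch. Fog1 has no known need to touch DNA itself. It binds the amino-terminal finger of GATA1 and brings the NuRD repressor complex, and Gata2 repression needs it. GATA3 is best known from T cells and innate lymphoid cells.

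The series compared Stag2 wild-type (WT) mice with mice that had lost Stag2 (KO), both studied 6 to 8 weeks after pIpC dosing ended. pIpC is an interferon inducer used to switch on conditional deletion. Stag2 is an X-linked subunit of the cohesin ring, which shapes chromatin loops. WT and KO mice both received pIpC, and the driver of deletion, the age of the mice and whether a library is 1 mouse are not given in the sources used here. Nuclei came from sorted Ter119+ erythroblasts and were run as combined RNA and ATAC libraries, 3 per genotype, of which the ATAC scores are described. The p-values below therefore measure the spread between these 3 and 3 libraries, which may be technical.

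The 6 libraries held 34073 nuclei, between 4617 and 6990 each, with median depths of 7123 to 8874 fragments per nucleus. The deposited classes are Early, Int and Late, and Early is small, with 102, 235 and 20 nuclei in WT and 310, 25 and 16 in KO. Median depths of Int nuclei were 12877, 12671 and 10121 fragments in WT and 14532, 13911 and 14998 in KO, without overlap. Those of Late nuclei overlapped, at 5693 to 6812 in WT and 6043 to 6504 in KO. Summed scores of 16 erythroid markers in the table rose along the classes, from 1627 to 2035 in Early, through 2681 to 3163 in Int, to 3043 to 3650 in Late. None of the listed markers of other blood lineages was at 0 in all libraries. Barcodes that occur in more than 1 library made up 4.34% of nuclei. The Stag2 score, which covers the whole locus and so does not check the deletion, was 57.6, 60.3 and 62.0 in WT and 58.5, 61.3 and 59.0 in KO Int nuclei. Over all nuclei the median share of fragments in peaks was lower in KO libraries, 57.4% to 59.9% against 62.2% to 64.7% in WT, and in Int nuclei the libraries overlapped, at 55.1% to 56.2% in KO and 55.3% to 61.9% in WT.

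The promoters of Gata1 and Gata2 are shown because the ratio of these genes is the measure used throughout. Each window is 300 bases of RefSeq sequence (GRCm38.p6, the assembly of mm10) written along the gene's strand, with the start site after base 250. Capitals mark a GATA core, searched as GATA on both strands.
Gata1, chrX:7967861-7968160, minus strand: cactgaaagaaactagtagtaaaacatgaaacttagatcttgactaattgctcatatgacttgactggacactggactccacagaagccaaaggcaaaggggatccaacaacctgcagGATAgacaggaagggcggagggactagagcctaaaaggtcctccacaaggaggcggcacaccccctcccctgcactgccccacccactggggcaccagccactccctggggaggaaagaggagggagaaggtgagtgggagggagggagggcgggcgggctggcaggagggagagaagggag
Gata2 distal start, chr6:88193641-88193940, plus strand: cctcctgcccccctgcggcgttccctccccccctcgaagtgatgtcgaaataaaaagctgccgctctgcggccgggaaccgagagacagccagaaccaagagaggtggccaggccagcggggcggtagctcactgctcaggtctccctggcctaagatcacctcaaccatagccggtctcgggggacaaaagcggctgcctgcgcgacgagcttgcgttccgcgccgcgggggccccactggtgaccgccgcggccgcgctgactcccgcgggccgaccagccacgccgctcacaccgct
Gata2 inner start, chr6:88198414-88198713, plus strand: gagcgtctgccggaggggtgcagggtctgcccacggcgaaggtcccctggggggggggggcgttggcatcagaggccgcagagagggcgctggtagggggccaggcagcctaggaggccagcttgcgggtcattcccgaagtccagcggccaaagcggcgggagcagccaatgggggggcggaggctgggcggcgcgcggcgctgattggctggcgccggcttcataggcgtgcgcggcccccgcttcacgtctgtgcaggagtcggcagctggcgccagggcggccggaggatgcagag
The Gata1 start site of this window lies inside the span that the deposited table gives for Gata1, which begins further upstream. The Gata1 window held 1 core, read as GGATAG, 132 bases before the start site, and 4 CpG dinucleotides. Both Gata2 windows lacked the core and were rich in CpG, with 32 and 29. A core occurred in 57.9% of the 32851 RefSeq promoter windows of this length, whose median was 7 CpG. The Gata3 window held 1 core and 22 CpG, and the Zfpm1 window no core and 37 CpG. A window without the core says only that these letters are not in it.

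In the deposited table Gata1 spans chrX:7959260-7976574 (minus strand), Gata2 chr6:88193891-88207032 (plus), Gata3 chr2:9857078-9878600 (minus) and Zfpm1 chr8:122282141-122337247 (plus), all in mm10. For each library, a class is given by its mean score per gene, rescaled so that all genes sum to 1000000. A score depends on the size of the gene, so levels are compared between libraries and classes and not between genes.

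Gata2 accessibility was higher without Stag2 in every class. WT libraries gave Int scores for Gata2 of 21.1, 24.3 and 17.4, and KO libraries gave 54.0, 48.2 and 48.2. In Late nuclei it was 11.97, 11.86 and 12.86 in WT and 29.41, 30.09 and 29.48 in KO. The KO libraries were all above the WT libraries, and the lowest KO Late value was also above the highest WT Int value. The log2 fold change was 1.23 (SE 0.0954, adjusted p = 2.82e-10) in Int and 1.21 (SE 0.0753, adjusted p = 5.24e-08) in Late nuclei, by limma on log2(score + 1) with Benjamini-Hochberg adjustment over 19465 and 15886 genes. These changes ranked 47 and 102 from the top of all genes tested. Over all nuclei Gata2 rose by 1.19 (SE 0.108, adjusted p = 2.26e-07), where 29.1% of genes were called higher.

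Early nuclei had the highest Gata2 scores of both genotypes, 116.1, 115.8 and 104.2 in WT and 137.1, 146.2 and 127.6 in KO. The genotypes did not overlap, and the KO mean was 1.22 times the WT mean. Whether that ratio differs from those of the later classes was not tested for Gata2 alone. With 3 against 3 libraries an exact permutation test cannot give a p under 0.1, and it gave 0.1 (two-sided). Among genes tested in Int, 12% also had non-overlapping Early libraries with KO higher, and 7.87% with KO lower. The libraries with at least 50 Early nuclei gave 116.1 and 115.8 in WT and 137.1 in the single KO library.

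Gata1 accessibility was lower without Stag2, by a smaller amount. Its Int score was 90.8, 88.4 and 88.8 in WT and 74.5, 80.1 and 82.8 in KO. In Late nuclei it was 74.3, 74.3 and 72.7 in WT and 61.9, 63.7 and 69.3 in KO. In Early nuclei the scores were 76.8, 68.4 and 79.5 in WT and 60.9, 56.6 and 59.4 in KO (exact permutation p = 0.1, the smallest possible). The genotypes did not overlap in any class. Gata1 fell by 0.17 on the log2 scale in Int (SE 0.0509, adjusted p = 0.0152) and by 0.18 in Late nuclei (SE 0.0523, adjusted p = 0.0103, limma).

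The call on Gata1 is less firm than that on Gata2. Without KO replicate 1 the Int value was -0.13 (adjusted p = 0.141), and without WT replicate 1 it was -0.16 (adjusted p = 0.0557). Cyclic loess scaling also ended the call in both classes (-0.14 in Int and -0.12 in Late nuclei). Gata1 was negative under all 19 alternatives run for each of these comparisons. Gata1 lies on the X chromosome with Stag2, and X-linked genes had a median log2 change of -0.01 in Int and -0.05 in Late nuclei, against 0.06 and 0.05 over all genes. When each chromosome was centred on its own median, Gata1 stood at -0.23 in Int (adjusted p = 0.0548) and -0.07 in Late nuclei (adjusted p = 0.265).

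Zfpm1 was also lower in KO libraries. Its score in Int nuclei was 561.0, 537.5 and 543.1 in WT and 459.6, 491.8 and 513.5 in KO, without overlap, and the log2 difference of -0.17 (SE 0.0738) did not pass the limma test (adjusted p = 0.119). It passed without WT replicate 3 (-0.17, adjusted p = 0.0351) and under quantile normalization (-0.12, adjusted p = 0.0427). In Late nuclei it was 489.5, 462.9 and 492.3 in WT and 430.1, 424.0 and 451.4 in KO. There Zfpm1 fell by 0.15 on the log2 scale (SE 0.0389, adjusted p = 0.00685, limma), a call lost without a variance trend. Early values were 410.6, 402.7 and 414.3 in WT and 355.5, 386.7 and 353.4 in KO, again without overlap (exact permutation p = 0.1). The share of fragments in peaks was lower in the same KO Late libraries, 60.3% to 61.8% against 64.1% to 66.4%, and its part in the Gata1 and Zfpm1 results was not tested.

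Gata3 accessibility was higher in KO libraries. Its Int score was 10.4, 7.8 and 6.3 in WT and 11.7, 11.7 and 11.2 in KO. In Late nuclei it was 2.6, 3.1 and 2.7 in WT and 7.0, 6.0 and 8.1 in KO, and in Early nuclei 16.8, 24.8 and 13.8 in WT and 44.0, 35.2 and 30.3 in KO. The genotypes did not overlap in any class. Gata3 rose by 0.48 in Int nuclei (SE 0.161, adjusted p = 0.0353, limma), a call lost when WT replicate 3 (0.33, adjusted p = 0.0909) or KO replicate 1, 2 or 3 (0.47, 0.47 and 0.50) was left out. It was also lost under quantile normalization (0.32), cyclic loess (0.32), no variance trend (0.48) and with nuclei matched on fragments (0.45). The mean of 4.93 over all Late libraries was under the minimum of 5 used for testing. Fitted with no minimum, the Late change was 1.07 (SE 0.132, adjusted p = 4.45e-05, limma). Over all nuclei Gata3 rose by 0.78 (SE 0.124, adjusted p = 0.000115).

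Of the 4 genes tested in Int nuclei, 2 were higher and 1 was lower in KO, where 12.7% and 7.1% of all genes tested were called higher and lower. Without KO replicate 1 the number of genes called in Int was 2547 in place of 3858. Of the 3 tested in Late nuclei, 1 was higher and 2 were lower, where 32.9% and 18.5% of all genes were called. The split of calls over all genes moved with the minimum score and with the scaling. Of Int and Late calls, 64.2% and 64.0% were higher in KO, and 53.9% and 41.0% at a minimum mean of 20. The shares of all genes given here and below are not matched on score. With libraries centred on their medians, 24.4% and 47.9% of Int and Late calls were higher. That centring lowered the Int changes of all genes by 0.18 on the log2 scale, and Gata2 still rose under it and under all other alternatives run. All 4 genes had non-overlapping Int and Late libraries, as had 37.3% and 59.5% of genes tested.

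**Figure D1:**
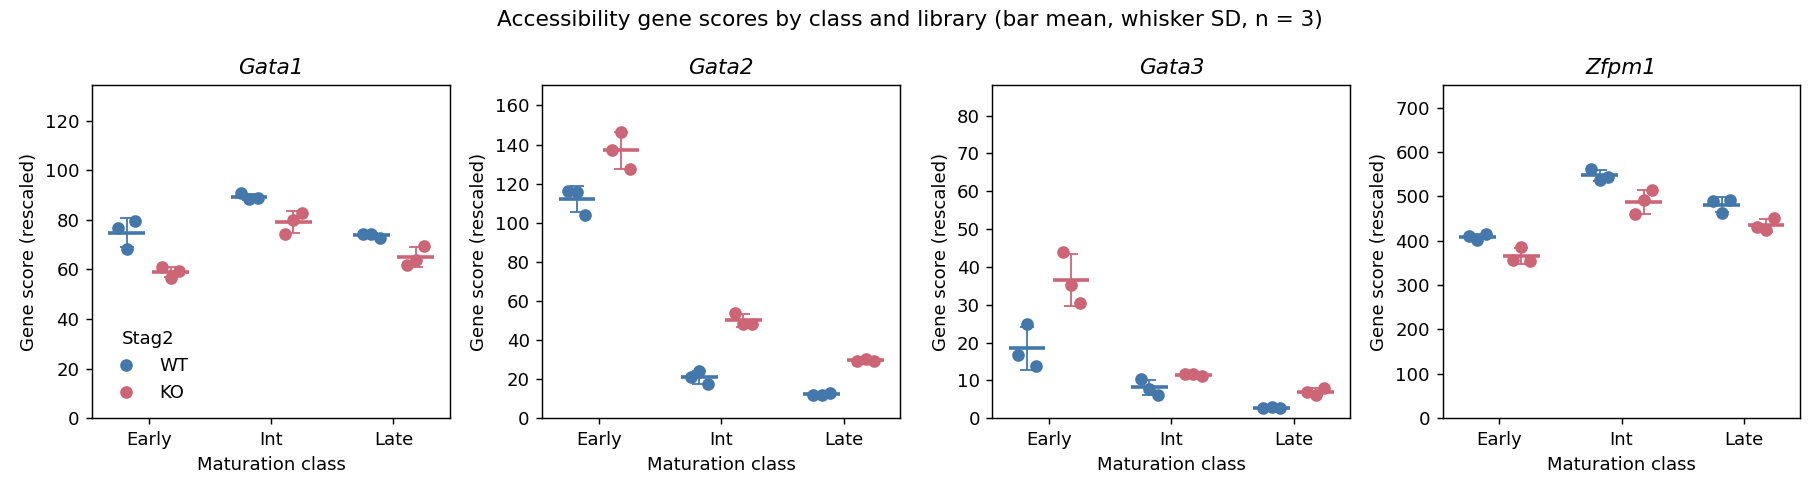
Gene score, rescaled so that all genes sum to 1000000 (y axis), of the 4 genes by maturation class (x axis), with 1 point per library, the mean as a bar and the SD as a whisker (n = 3 per genotype). Gata2 and Gata3 points of KO libraries lie above those of WT libraries in each class, and Gata1 and Zfpm1 points lie below them.

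The ratio of Gata2 to Gata1 within a library does not change when all genes of the library are multiplied by 1 factor. Scalings that treat genes or chromosomes differently can change it, and it was not recomputed under them. Its absolute size depends on the extent of the 2 genes, so only its differences are described. In Early nuclei it was 1.51, 1.69 and 1.31 in WT and 2.25, 2.58 and 2.15 in KO. In Int nuclei it was 0.233, 0.275 and 0.196 in WT and 0.726, 0.602 and 0.582 in KO. In Late nuclei it was 0.161, 0.160 and 0.177 in WT and 0.475, 0.473 and 0.425 in KO. All KO libraries lay above all WT libraries of the same class, and the KO Late ratios lay above the WT Int ratios.

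The ratio was 1.55 times higher in KO Early nuclei, 2.73 times in Int and 2.76 times in Late nuclei (exact permutation p = 0.1 in each, the smallest that 3 against 3 can give). From Early to Int nuclei it dropped by 2.69 ± 0.0596 on the log2 scale in WT and by 1.87 ± 0.232 in KO (SD, n = 3). Each WT library fell further than each KO library, and the difference of 0.82 also had the smallest possible p of 0.1 (exact permutation test). From Int to Late the ratio fell in 6 of 6 libraries, by 0.48 ± 0.219 on the log2 scale (SD, n = 6, exact sign-flip permutation p = 0.03125, two-sided). This later step differed between genotypes by 0.02 (exact permutation p = 1).

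**Figure D2:**
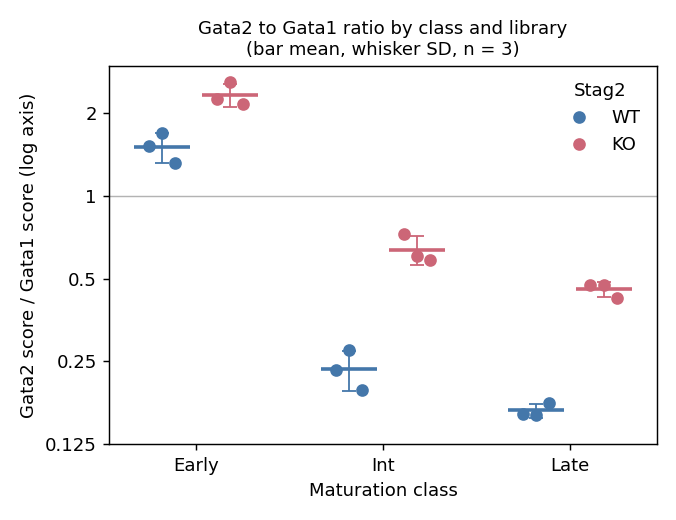
Ratio of the Gata2 score to the Gata1 score (y axis, log scale) by maturation class (x axis), with 1 point per library, the mean as a bar and the SD as a whisker (n = 3 per genotype). The ratio is higher in all Early libraries than in all Int and Late libraries, and KO libraries lie above WT libraries in each class.

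Within a genotype all 4 genes closed from Int to Late when libraries were scaled to 1 sum. Gata2 fell by 0.72 in WT (SE 0.117, adjusted p = 3.29e-06) and by 0.74 in KO (SE 0.0542, adjusted p = 6.60e-10, limma on the within-library difference). Gata3 fell by 1.24 in WT (adjusted p = 2.29e-08) and by 0.65 in KO (adjusted p = 2.74e-05), and the KO call was lost under quantile normalization (-0.23) and cyclic loess (-0.13). Gata1 fell by 0.27 and 0.28, and Zfpm1 by 0.18 and 0.16, in WT and KO. The WT call on Zfpm1 was lost without WT replicate 1 (-0.18, adjusted p = 0.112). In this contrast 47.1% of WT and 49.5% of KO genes tested were called lower, and the median gene moved by -0.15 in both. With median centring, which adds 0.21 in WT and 0.19 in KO, Zfpm1 stood at 0.023 and 0.026 and Gata1 in WT at -0.066 without a call. With each chromosome centred, Gata1 stood at 0.053 in WT and 0.083 in KO.

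The Int to Late change itself did not differ between genotypes in the main limma fit for any of the 4 genes. The KO minus WT difference was -0.02 for Gata2 (95% interval -0.28 to 0.24), -0.01 for Gata1 (-0.12 to 0.11) and 0.02 for Zfpm1 (-0.09 to 0.12). For Gata3 it was 0.59 (interval 0.19 to 0.99, adjusted p = 0.0663), and it passed under 7 of 19 alternatives. Among these were the replicate block (adjusted p = 0.0271) and the fit without WT replicate 3 (adjusted p = 0.0135). In this test 7.49% of genes were called, and the share is sensitive to how the variance was modelled, with 28 calls in place of 1329 under a trend on the mean difference.

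The deposited clusters are almost split by genotype, so few hold both. Clusters C8 and C10 of the Int class were 99.4% and 99.9% KO, while C9 and C11 of the same class were 0.971% and 0.0554% KO. Late nuclei fell mainly into C2, with 97.4% KO nuclei, and C3, with 0.74%. How the clusters were made is not given in the sources used here, and they may rest on the same accessibility data, so their levels are given as a description.

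KO clusters C8 and C10 of the Int class had Gata2 scores above C9 and C11, the WT clusters nearest in median depth. The KO cluster of each pair was the deeper one. In C8 the 3 KO libraries had Gata2 scores of 66.1 to 73.9, and in C9 the 3 WT libraries had 29.7 to 38.7, at median depths of 21160 and 17356 fragments. C10 had Gata2 scores of 39.0 to 44.3 in KO, and C11 had 14.9 to 18.4 in WT, at 15384 and 14791 fragments. The shallower C6, also mainly Int and WT, had 11.1 to 14.3 in WT libraries at 5245 fragments. In the Late class C2 had 29.6 to 30.6 in KO and C3 had 11.8 to 12.7 in WT. The ratio of Gata2 to Gata1 followed the same order, at 0.786 to 0.938 in C8, 0.309 to 0.451 in C9, 0.499 to 0.589 in C10 and 0.159 to 0.206 in C11.

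Cluster C5, of the Int class, was the best filled of the shared clusters, with 628 WT and 1698 KO nuclei. Median depths of its Int nuclei were 3909 to 4163 fragments in WT and 4765 to 5052 in KO libraries. The part of depth in the C5 differences was not tested. The Gata2 score of C5 was 19.0 to 21.4 in WT and 41.1 to 43.0 in KO. Gata2 rose by 1.04 within C5 (SE 0.174, adjusted p = 0.0199, limma), where 0.412% of genes were called higher. That share rests on 80 genes, and 4, 14 and 5 were called higher without KO replicate 1, 2 and 3, and 189 without WT replicate 1. The size was 1.0 to 1.09 with any library left out, and the call was lost without KO replicate 1, 2 or 3 (adjusted p of 0.151, 0.176 and 0.155). Gata1 differed in C5 by -0.11 (95% interval -0.39 to 0.17) and Zfpm1 by -0.31 (-0.49 to -0.13), neither past the adjusted threshold. In C3 Gata1 scores ran the other way, at 70.8 to 74.6 in WT and 87.9 to 111 in the 2 KO libraries (0.43, adjusted p = 0.184), and in C2 the WT range of 25.7 to 108.5 held the KO range of 62.0 to 68.4. In C5 Gata3 differed by 1.1 (adjusted p = 0.201). The small mixed clusters C1 and C4 held 138 and 143 nuclei. Gata2 in C1 ran the other way, at 0.826 to 16.4 in WT and 0 to 7.32 in KO, with overlap (-1.34, 95% interval -4.73 to 2.05). In C4, with 2 libraries per genotype, the WT range of 11.2 to 67.9 held the KO range of 30.0 to 36.3 (0.23). Neither passed the limma test, and the ratios of Gata2 to Gata1 also overlapped in both.

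Cluster C7 held most Early nuclei, at a median depth of 42254 fragments. Gata2 scores there were 116.2 and 119.7 in WT and 136.4 and 157.9 in KO, in the 2 libraries per genotype with at least 20 nuclei. The log2 difference of 0.31 did not pass the limma test (adjusted p = 0.516), and it was 0.21 to 0.42 with 1 library left out. In C2 the 190 WT nuclei had Gata2 scores of 11.1 to 21.3, below the KO range given above (log2 difference 1.06, adjusted p = 0.312), and the difference passed without WT replicate 3 (1.35, adjusted p = 0.0322). The 58 KO nuclei of C3, from 2 libraries, had 4.63 and 8.49, below the WT nuclei of that cluster (-0.85, adjusted p = 0.266). With 1 KO library left the log2 difference in C3 was -1.23 without KO replicate 2 and -0.48 without KO replicate 3. A lone library is assumed there to vary like the WT libraries, so no p-value is given. The WT nuclei of C2 and the KO nuclei of C3 were shallow. Median depths per library were 1887 to 2259 fragments for Late WT nuclei of C2, against 6091 to 6601 in KO. They were 2434 and 3007 for Late KO nuclei of C3, against 5772 to 6966 in WT. The part of depth in these differences was not tested.

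**Figure D3:**
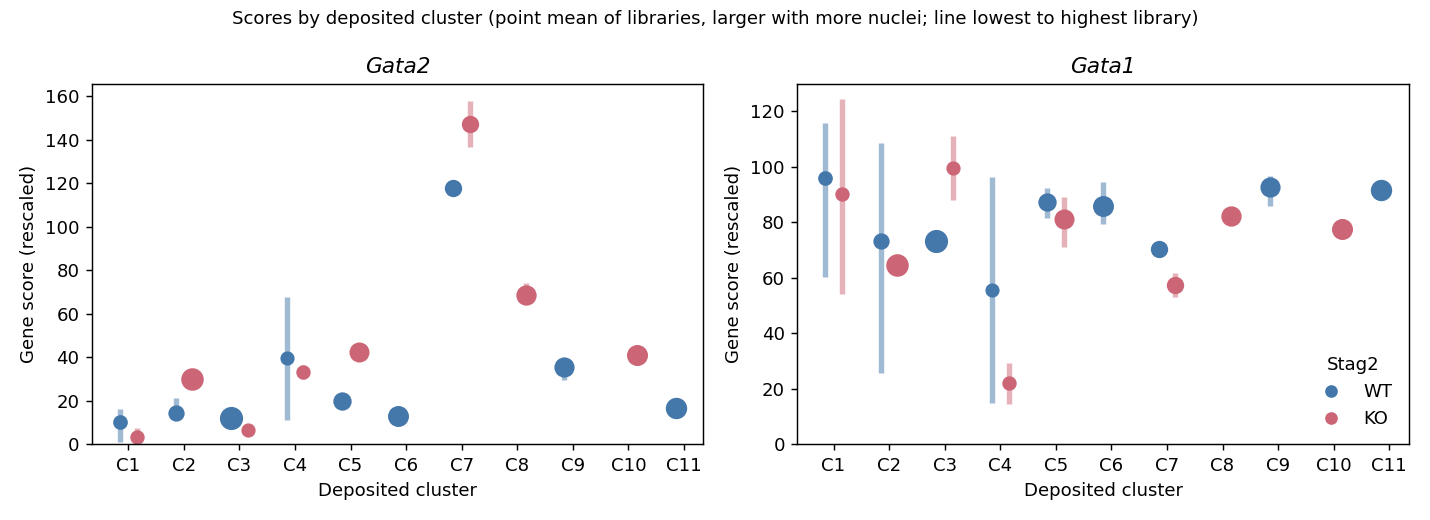
Gata2 (left) and Gata1 (right) rescaled gene scores (y axis) by deposited cluster (x axis), with the mean of libraries as a point whose size grows with the number of nuclei and a line from the lowest to the highest library. Only libraries with at least 20 nuclei in a cluster are drawn, so C8 and C10 show KO alone and C6, C9 and C11 show WT alone.

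A score above 0 becomes more likely with depth, so the share of nuclei with a Gata2 score was read within bands of fragments per nucleus. In Int nuclei of 10000 to 20000 fragments the share was 31.6% to 35.9% in WT and 53.0% to 59.3% in KO libraries. At 5000 to 10000 fragments it was 17.5% to 17.8% and 28.6% to 35.9%, and over 20000 it was 56.2% to 60.5% and 76.7% to 79.9%. In Late nuclei of 5000 to 10000 fragments it was 15.7% to 17.5% and 28.9% to 29.1%. The KO libraries lay above the WT libraries in all bands with both genotypes in these classes.

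Among nuclei with a Gata2 score, the score itself was also larger in KO. In Int nuclei of 10000 to 20000 fragments its mean on the deposited scale of about 10000 per nucleus was 0.542 to 0.613 in WT and 0.795 to 0.849 in KO. Of all Int nuclei in this band, 79.0% to 79.8% had a Gata1 score in WT and 73.2% to 77.4% in KO. At 5000 to 10000 fragments the genotypes also did not overlap, at 55.7% to 57.0% and 46.5% to 48.5%. They overlapped at 1000 to 5000 fragments (25.4% to 31.0% and 22.2% to 27.1%) and over 20000 (89.5% to 94.7% and 87.3% to 90.0%). In the band of 10000 to 20000 fragments, nuclei with both scores made up 24.8% to 29.4% in WT and 41.8% to 46.3% in KO. A Zfpm1 score was present in 99.9% to 100% of these KO nuclei and 100% of WT nuclei, so its difference lay in the height, at 4.51 to 5.03 in KO and 5.22 to 5.58 in WT. Gata3 had a score in 11.1% to 14.6% of them in WT and 18.5% to 20.2% in KO.

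**Figure D4:**
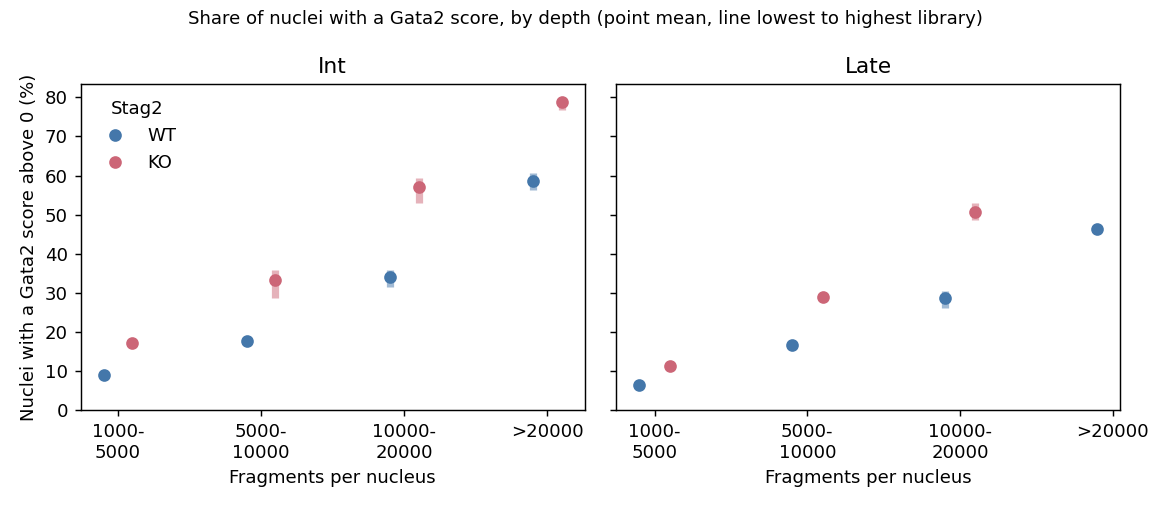
Percent of nuclei with a Gata2 score above 0 (y axis) by fragments per nucleus (x axis) in Int and Late nuclei, with the mean of libraries as a point and a line from the lowest to the highest library. KO lies above WT in each band that holds both, and no KO library had 20 Late nuclei over 20000 fragments.

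Genes around Gata2 did not all follow it. Mir6376, a microRNA gene 90 kb upstream of Gata2 inside the end of Rpn1, was 39.5, 42.5 and 34.8 in WT and 65.5, 56.4 and 54.0 in KO Int nuclei. It rose by 0.58 in Int (SE 0.0752, adjusted p = 1.94e-06) and by 0.56 in Late nuclei (SE 0.0583, adjusted p = 5.81e-06, limma). Rpn1 itself, an oligosaccharyltransferase subunit gene, differed by 0.12 and 0.04 (adjusted p of 0.102 and 0.510). Downstream, Dnajb8 and Eefsec rose in Late nuclei by 0.41 and 0.26 (adjusted p of 0.00563 and 0.00780), and differed by 0.18 and 0.14 in Int nuclei without passing. Quantile normalization ended both Late calls, at 0.11 and 0.10. Within 500 kb, 3 of 17 genes tested rose and 4 fell in Int nuclei, against 12.7% and 7.1% of all genes. In Late nuclei 5 of 17 rose and 6 fell, against 32.9% and 18.5%. The other 2 that rose in Int were H1fx (0.78) and Gm5577 (0.71), which lie side by side about 212 kb upstream. Windows of these 2 genes can share fragments, so their scores are not independent. The 4 that fell were Rab43 (-0.24), Efcc1 (-0.21), Gp9 (-0.18) and Sec61a1 (-0.15). These 6 genes were named after their values were seen.

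Near Gata1 all genes called within 500 kb were lower in KO, at shares near those of all genes called lower. Of X-linked genes tested, 52.4% in Int and 61.7% in Late nuclei had changes below 0, against 39.1% and 42.7% of all genes. Glod5, which lies upstream of Gata1, had scores of 30.7, 31.4 and 29.8 in WT and 23.1, 23.4 and 22.8 in KO Int nuclei, without overlap. Glod5 fell by 0.39 in Int (adjusted p = 0.00213) and by 0.28 in Late nuclei (adjusted p = 0.00698, limma), more than Gata1 did. Hdac6, a deacetylase gene downstream, fell by 0.22 in Int nuclei (adjusted p = 0.0307), and Pim2, a kinase gene, fell by 0.15 in Late nuclei (adjusted p = 0.0311). The Hdac6 call was lost without WT replicate 3 (-0.15) or KO replicate 1 (-0.19) or 2 (-0.22). The Pim2 call was lost without WT replicate 2 (-0.12) or 3 (-0.14) or KO replicate 2 (-0.12) or 3 (-0.15). Of 19 alternatives for each, the Hdac6 call was lost under 4 and the Pim2 call under 10. Pim2 ran from -0.21 to -0.033 over its alternatives. The other genes within 100 kb that were tested (Otud5, Pqbp1, Timm17b, Slc35a2, Pcsk1n and Suv39h1) did not pass in either class, and Eras was under the minimum. Within 500 kb, 2 of 36 genes fell in Int and 6 of 35 in Late nuclei, against 7.1% and 18.5% of all genes called lower. None was called higher by limma, with 1 higher at an unadjusted p under 0.05 in each class, where 12.7% and 32.9% of all genes were called higher.

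Around Zfpm1 most genes called were higher in KO, while Zfpm1 itself was lower. Mvd, a mevalonate pathway enzyme gene, was 82.0, 83.2 and 87.8 in WT and 105.7, 100.4 and 111.5 in KO Int nuclei. Mvd rose by 0.32 in Int (adjusted p = 2.91e-05) and by 0.36 in Late nuclei (adjusted p = 3.77e-05, limma). The Int call on Mvd was lost under 2 of 19 alternatives, over which its value ran from 0.15 to 0.37. Il17c and Cyba rose in Late nuclei by 0.46 and 0.29 (adjusted p of 0.0174 and 0.0188), though Cyba stood at -0.02 under quantile normalization. The Il17c call was lost without WT replicate 3 (0.40) or KO replicate 2 (0.27), and the Cyba call without WT replicate 1 (0.26) or KO replicate 2 (0.23). Of 18 alternatives for each, Il17c lost its call under 4, and Cyba lost it under 6 and changed sign under 1. Trhr2 and Zc3h18, closer to Zfpm1, did not pass in either class. Of 25 genes tested within 500 kb, 8 rose in Int nuclei, where 12.7% of all genes were called higher. In Late nuclei 12 rose and 1 fell, against 32.9% and 18.5% of all genes. Both counts of genes that rose include Mvd and 9330133O14Rik, with starts 161.3 and 161.5 kb downstream. They also include Rnf166 and Ctu2, with starts 193.9 and 194.0 kb downstream. Windows of such pairs can share fragments, so the genes counted are not all independent.

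Next to Gata3, the divergent transcript gene 4930412O13Rik was 5.5, 4.6 and 4.2 in WT and 10.3, 9.4 and 9.4 in KO Int nuclei. It rose by 0.90 (SE 0.152, adjusted p = 8.17e-05, limma). Its WT mean of 4.77 was under the minimum of 5, so it was tested through its KO values. Fitted with no minimum it had an adjusted p of 0.000408 (limma). Its windows can share fragments with those of Gata3, so the scores are not independent. Taf3 did not pass in either class, and 9230102O04Rik and Gm13262 were under the minimum. Within 500 kb, 1 of 7 genes tested rose in Int, where 12.7% of all genes were called higher, and 1 of 5 in Late nuclei, where 32.9% were. The gene that rose in Late nuclei was Itih5 (0.68, adjusted p = 0.000198, limma), named after its value was seen.

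**Figure D5:**
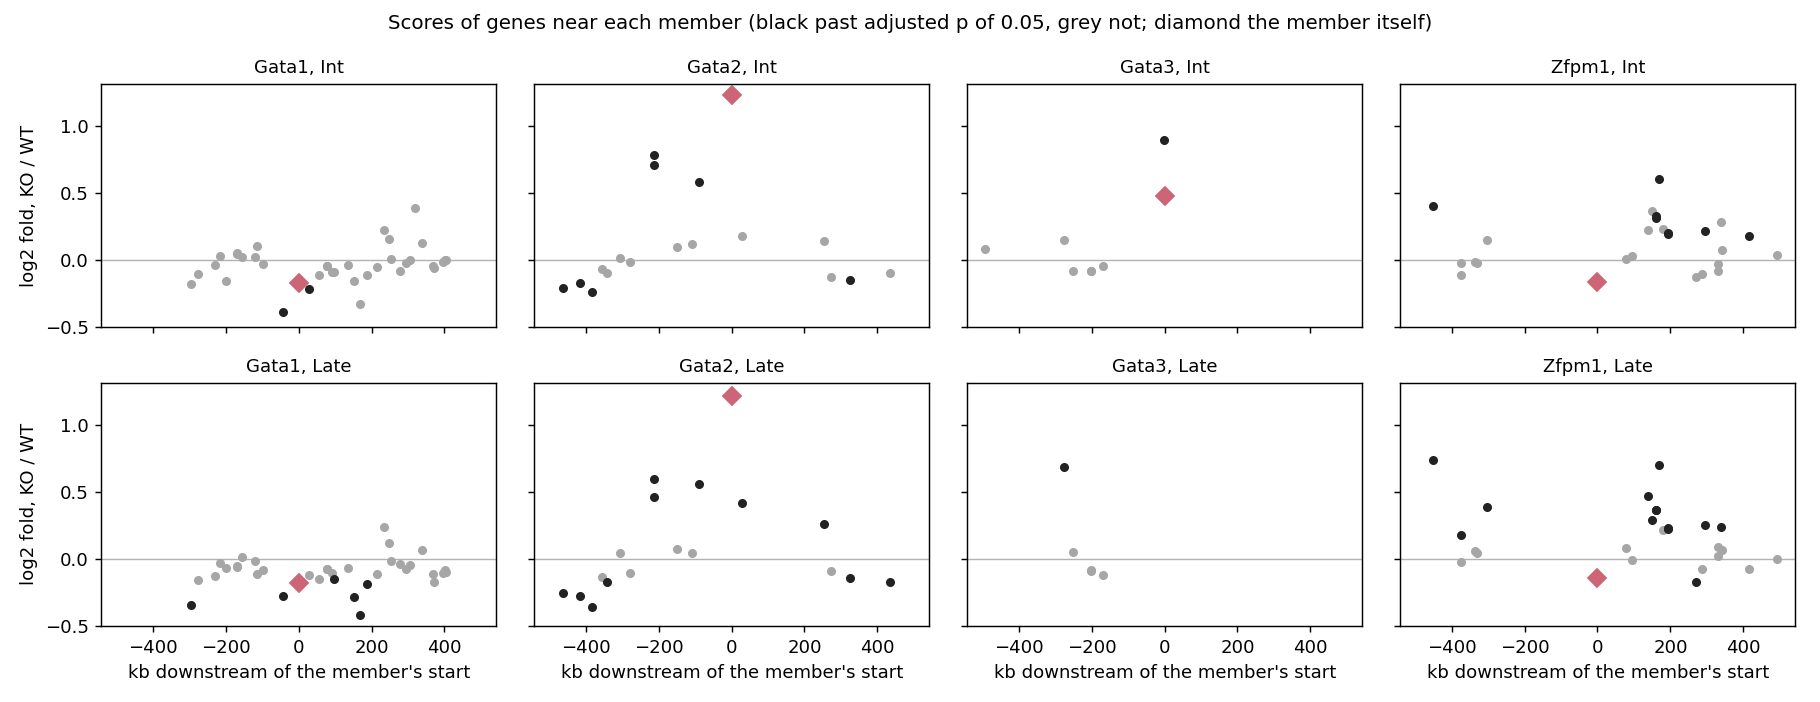
Log2 fold change of gene scores, KO over WT (y axis), of genes within 500 kb of each of the 4 genes against distance downstream of its start in kb (x axis), in Int (top) and Late nuclei (bottom). The diamond is the gene itself, black points passed an adjusted p of 0.05 and grey points did not. Gata2 stands above all its neighbours, and Zfpm1 lies below 0 among neighbours called higher.

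The patterns most like each gene were taken over 12 values, 6 libraries in Int and Late nuclei, among 17747 genes, leaving out those within 1 Mb. These values fall into 4 groups by genotype and class, so the correlations mostly follow the group means. For Gata2 they were Kcnab2, a potassium channel subunit gene, Nin, a centrosome protein gene, and Atf3, a stress-induced transcription factor gene, with Pearson r of 0.994, 0.994 and 0.993. The log2 difference, KO over WT, was 0.99 in Int and 0.95 in Late nuclei for Kcnab2, 0.67 and 0.74 for Nin, and 0.69 and 0.70 for Atf3. These differences follow from the choice of genes by likeness to Gata2 over the same values.

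Gata1 and Zfpm1 resembled each other, with r of 0.960, and Gata1 was the second most similar gene to Zfpm1 after Gm14635 (0.961) and before H3f3a (0.959). The closest genes to Gata1 were Nek8 (0.9760), B230206H07Rik (0.9751) and Tdrd3 (0.9750). Gata2 and Gata1 had r of -0.04 over the same values. The closest genes to Gata3 were Mir7648 (0.986), Alg10b (0.982), which overlaps Mir7648, and AA619741 (0.980), and its r with Gata2 was 0.889.

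Other genes of the pathway were read from lists of relatives, partners and targets. Among genes known to be activated by GATA1, 12 of 26 tested fell and none rose by limma in Int nuclei (1 was higher at an unadjusted p under 0.05), where 7.1% of all genes were called lower. Their median log2 change was -0.14 against 0.06 over all genes. In Late nuclei 20 of 26 fell and none rose, nor was any higher at an unadjusted p under 0.05 (0 genes), where 18.5% of all genes were called lower. The median was -0.21 against 0.05. The largest falls in Int were those of the globin genes Hba-a1, by 0.33 (adjusted p = 0.000338), and Hbb-bs, by 0.28 (adjusted p = 0.0021, limma). Each has a near-identical copy beside it, so its own share of the fragments is uncertain. The copy Hba-a2 had Int scores of 159.8, 136.0 and 182.2 in WT and 144.1, 168.6 and 181.6 in KO, which overlap (0.05, adjusted p = 0.671). The copy Hbb-b2 fell by 0.19 (adjusted p = 0.0245, limma). In Late nuclei Slc25a37, the mitochondrial iron importer gene, fell by 0.62 (adjusted p = 0.000126) and Rhag, an erythrocyte membrane channel gene, by 0.39 (adjusted p = 9.99e-06).

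Of the 17 partners that form complexes with GATA1, 4 fell and 1 rose in Int nuclei, with a median log2 change of -0.07, where 7.1% and 12.7% of all genes were called lower and higher. In Late nuclei 8 of 16 fell, with a median of -0.09, against 18.5% of all genes. Tal1, the basic helix-loop-helix factor beside GATA1 on erythroid enhancers, had Int scores of 159.8, 156.3 and 155.2 in WT and 134.9, 132.8 and 135.4 in KO. Tal1 fell by 0.22 in Int nuclei (adjusted p = 0.000739, limma). Lmo2, the bridge protein of the same complex, fell by 0.22 in Int and 0.27 in Late nuclei (adjusted p of 0.00434 and 0.000209), and Gfi1b, a repressor, fell by 0.30 in Late nuclei (adjusted p = 0.00574). The Int call on Lmo2 was lost without WT replicate 1 (-0.15). Cbfa2t3, the corepressor ETO2, which lies within 500 kb of Zfpm1, rose by 0.18 in Int nuclei (adjusted p = 0.0103), a call lost under median centring (0.0031) and without KO replicate 3 (0.14). In Late nuclei Cbfa2t3 stood at -0.08 (adjusted p = 0.131).

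NuRD subunits, the partners of Fog1, included more genes called lower than higher. In Int nuclei 3 of 13 fell, against 7.1% of all genes, with a median log2 change of -0.06. In Late nuclei 6 fell and 1 rose, against 18.5% and 32.9%, with a median of -0.13. Mta3 fell by 0.21 and 0.33 (adjusted p of 0.002 and 0.00025), Rbbp7 by 0.18 in Int (adjusted p = 0.0171, lost without KO replicate 3 at -0.16) and Mbd2 by 0.22 in Late nuclei (adjusted p = 0.00128). Hdac2 rose by 0.29 in Late nuclei (adjusted p = 0.0047, limma), a call lost under quantile normalization at 0.17.

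Among 19 genes linked to GATA2 and repressed by GATA1, 4 rose and 2 fell in Int nuclei, against 12.7% and 7.1% of all genes, with a median of 0.08 against 0.06 over all genes. In Late nuclei 7 of 15 rose and 4 fell, against 32.9% and 18.5% of all genes, with a median of 0.08 against 0.05. Fli1, a megakaryocyte and progenitor ETS factor, was 4.5, 5.2 and 4.7 in WT and 13.01, 14.71 and 13.82 in KO Late nuclei. Fli1 rose by 1.36 there (SE 0.1005, adjusted p = 2.43e-07) and by 0.61 in Int nuclei (adjusted p = 0.000763, limma). Its WT mean of 4.79 in Late nuclei was under the minimum of 5, so it was tested there through its KO values. Fitted with no minimum it had an adjusted p of 7.25e-07 (limma). Spi1, which encodes PU.1, rose by 0.54 in Int nuclei (adjusted p = 0.00773) and Etv6 by 1.04 in Late nuclei (adjusted p = 1.48e-06). Tal1, given above, is also on this list and on that of activated targets, and is the other gene of this list that fell in Int nuclei. Myb, a progenitor gene, went the other way and fell by 0.38 in Int and 0.46 in Late nuclei (adjusted p of 0.00489 and 0.000466), and Samd14 fell by 0.25 in Late nuclei (adjusted p = 0.00205).

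Of the paralogues Gata4, Gata5, Gata6, Zfpm2 and Trps1, the 5 tested in Int nuclei had a median change of 0.12, against 0.06 over all genes. None was called by limma, with 0 at an unadjusted p under 0.05, where 12.7% and 7.1% of all genes were called higher and lower. In Late nuclei, where 32.9% of all genes were called higher, 2 of 3 tested rose, Zfpm2 (Fog2) by 0.55 and Trps1 by 0.55 (adjusted p of 0.00482 and 0.00591), and both lost the call under quantile normalization, at 0.23 and 0.20.

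Some summed scores of markers of other lineages differed by genotype beside these results. Summed scores of 13 megakaryocyte markers were 386 to 433 in WT and 457 to 482 in KO Int nuclei, and 317 to 362 against 382 to 396 in Late nuclei. Those of 13 mast cell and basophil markers, cells that also use Gata2, were 84.3 to 109 in WT and 109 to 117 in KO Int nuclei, and 59.2 to 63.7 against 77.3 to 81.1 in Late nuclei. For 14 T cell and innate lymphoid markers, the cells known for Gata3, they were 161 to 188 and 178 to 192 in Int, with overlap, and 137 to 145 and 148 to 154 in Late nuclei. Summed erythroid markers went down, from 2895 to 3163 in WT to 2681 to 2838 in KO Int nuclei, and from 3530 to 3650 to 3043 to 3132 in Late nuclei. Stem and progenitor markers overlapped in Int nuclei (201 to 257 against 228 to 251), and were 133 to 147 against 161 to 175 in Late nuclei. Myeloid markers summed to 194 to 227 against 258 to 271 and B cell markers to 113 to 131 against 138 to 155 in Int nuclei. In Late nuclei the myeloid sums were 274 to 288 against 300 to 333, and those of B cell markers 75.9 to 83.0 against 102 to 106. Each list of another lineage thus had higher sums in KO Late nuclei, without overlap. In Early nuclei the sums were higher in KO without overlap for megakaryocyte (484 to 529 against 533 to 646), stem and progenitor (399.9 to 502 against 508 to 539) and myeloid markers (199 to 301 against 302 to 371). The gaps were narrow, with 300.6 against 301.5 for myeloid markers, and KO replicates 2 and 3 held 25 and 16 Early nuclei. Of genes tested in Int, 12% had non-overlapping Early libraries with KO higher, and such a share was not computed for sums. Early erythroid sums were lower in KO (1781 to 2035 against 1627 to 1745), and those of the T cell and innate lymphoid, mast cell and basophil, and B cell lists overlapped. Gene by gene, 3 megakaryocyte markers of 10 tested rose and 2 fell in Int nuclei, where 12.7% and 7.1% of all genes were called higher and lower. Itga2b, an integrin subunit gene, was 46.0 on average in WT and 81.7 in KO, and Gp5, a platelet glycoprotein gene, 10.5 and 27.1, while Gp9, of the same glycoprotein complex and within 500 kb of Gata2, fell from 132.5 to 117.1. Of the mast cell and basophil list 0 of 7 and of the T cell and innate lymphoid list 0 of 12 were called in Int nuclei by limma. This stands against the same 12.7% and 7.1% of all genes, and 1 and 0 were higher at an unadjusted p under 0.05. In Late nuclei 3 of 5 and 1 of 7 tested rose, where 32.9% of all genes were called higher. Among the mast cell and basophil genes that rose was Cma1, with Late means of 4.22 in WT and 7.20 in KO. Its WT mean was under the minimum of 5, so it was tested through its KO values. The part of these markers in the Gata2 and Gata3 results was not tested. Leaving out the 5% of nuclei with the highest doublet scores and matching nuclei on fragments both kept the Gata2 calls. The Int call on Gata3 was lost with matched nuclei, as given above. The doublet score was 0 in 27728 of the 34073 nuclei, and neither alternative tested the part of other lineages.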

How the data were processed

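The 6 ATAC libraries of sorted Ter119+ erythroblast nuclei were used, 3 WT and 3 KO; the matched RNA and the other assays of the series were not analysed here. Reads were processed with Cell Ranger against mm10, per the submitters' processing notes. The authors deposited a signal (gene score) per gene and nucleus that sums to about 10000 in each nucleus, so depth is not in the score. The deposited table of nuclei gives fragment counts, a doublet score, an enrichment score at start sites, the share of fragments in peaks, and the classes and clusters, which were taken as given. How the authors computed scores, classes and clusters is not given in the sources used here. That table holds 2 copies of the same rows, and 1 was used. Gene names were joined by row order, since the score rows carry none.

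Here scores were averaged per library and class, rescaled to a sum of 1000000 and tested as log2(score + 1) with limma 3.58.1 (trend, R 4.3.3) over all genes with a mean of at least 5. Adjusted p-values are those of Benjamini and Hochberg, called under 0.05. Fold changes on this scale understate those of low genes. Ratios and Early values were tested by exact permutation. The fit was tested on simulated data. Named genes were the 4 genes, genes within 100 kb, the 3 genes most similar to each, and of each pathway list the 2 highest and 2 lowest changes past the threshold in Int and in Late nuclei. Neighbours beyond 100 kb, the globin copies Hba-a2 and Hbb-b2, megakaryocyte markers and the mast cell marker Cma1 were named after their values were seen. The genes and lists were chosen with earlier results of these data known. Alternatives changed the pseudocount, filter, scaling, variance model, nuclei and libraries, and the replicate number as a block. Replicate numbers were not used as pairs in the main fit. The deviations of same-numbered Int libraries correlated at 0.13, -0.08 and 0.19, and those of other numbers at -0.26 to 0.18. In Late nuclei the values were 0.09, 0.05 and 0.05 against -0.07 to 0.02. Deviations from a mean of 3 libraries cannot settle whether the numbers pair the samples.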

Additional observations from a re-analysis of the deposited data

How the results depend on the processing

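Gata2 kept its direction and its call under all 19 alternatives in each of the all, Int and Late comparisons (log2 0.90 to 1.32, 1.05 to 1.34 and 1.0 to 1.31), and under all 15 in both Late against Int comparisons. The Gata2 to Gata1 ratio kept its direction in the genotype comparisons under the 11 alternatives run for it in all, Int and Late nuclei, and the 10 in Early nuclei. Quantile normalization, cyclic loess and chromosome centring were not among them. The cause of the changes below was not tested.

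Gata1 lost its call under cyclic loess (-0.14 in Int, -0.12 in Late, -0.12 over all nuclei) and with each chromosome centred (-0.23, -0.066, -0.13), without a variance trend in Int (-0.17) and under quantile normalization over all nuclei (-0.13). Gata3 in Int lost it under quantile normalization (0.32), cyclic loess (0.32), no variance trend (0.48) and nuclei matched on fragments (0.45). Its KO change from Int to Late lost it under quantile normalization (-0.23) and cyclic loess (-0.13). Zfpm1 passed under quantile normalization in Int (-0.12) and over all nuclei (-0.11), and there also with no filter (-0.15), matched nuclei (-0.15) and without the highest doublet scores (-0.15). Zfpm1 in Late lost its call without a variance trend (-0.15).

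From Int to Late, median centring put Zfpm1 at 0.023 in WT and 0.026 in KO and took the WT call from Gata1 (-0.066). Centring each chromosome put Gata1 at 0.053 and 0.083 and left Zfpm1 at -0.061 and -0.083 without a call. The genotype difference in this change, close to 0 for 3 genes, changed sign for Gata1 under quantile normalization (0.021), cyclic loess (0.020), chromosome centring (0.029) and matched nuclei (0.018). It did so for Gata2 with a pseudocount of 0.25 (0.0011), matched nuclei (0.091) and nuclei weighted by fragments (0.18). For Zfpm1 it did so under quantile normalization (-0.013), cyclic loess (-0.029) and chromosome centring (-0.022). For Gata3 it passed with a pseudocount of 0.25 (0.72), median centring (0.57), chromosome centring (0.56), the replicate block (0.59), without the highest doublet scores (0.62) and weighted by fragments (0.62). For the ratio it turned with a pseudocount on both means (-0.0097) and without the highest doublet scores (-0.022). Among neighbours, Cyba in Late nuclei turned under quantile normalization (-0.022).

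Genes called numbered 1921 in Int without a variance trend. At a minimum mean of 20 they numbered 4560 in Late, 4244 over all nuclei, 8056 and 7643 from Int to Late in KO and WT, and 601 for the genotype difference in that change, where fewer genes were tested. Weighting by fragments gave 2415 over all nuclei. The difference in the change had 28 calls with the variance trend on the mean difference (chosen after seeing the data), 741 under quantile normalization and 430 without a trend.

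Leaving out 1 library each gave -0.21 to -0.13, -0.23 to -0.15 and -0.21 to -0.13 for Gata1 in Int, Late and all nuclei, 0.33 to 0.65 for Gata3 in Int, -0.20 to -0.12 for Zfpm1 in Int, and -0.21 to -0.17 for Zfpm1 from Int to Late in WT. The genotype difference in that change ran from -0.022 to 0.015 for Gata1, -0.15 to 0.14 for Gata2, 0.39 to 0.73 for Gata3, -0.015 to 0.044 for Zfpm1 and -0.13 to 0.19 for the ratio. Counts of calls ran from 2547 to 4782 in Int and from 375 to 2700 for that difference. The fall of the ratio from Int to Late was -0.55 to -0.42, where 5 libraries cannot give an exact p under 0.0625.

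The fit with a replicate block changed no other call on the 4 genes, gave 4527 genes called in Int, and called Gata2 at 1.23 and 1.21 in Int and Late nuclei. Early values rest on as few as 16 nuclei in a library, and most Late nuclei have no Gata2 score.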
